A study of Mus musculus with 6 samples.

Results

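The integrated stress response regulators described here are 10 mouse genes chosen by name: Atf4, Atf5, Ddit3, Atf3, Cebpb, Cebpg, Trib3, Ppp1r15a, Chac1 and Sesn2. The choice was made with earlier results of these data known. Each symbol was matched to its Ensembl identifier in a deposited table of read counts, which gave 10 of 55416 identifiers. All 10 passed the filter on low counts, as did 17679 genes in all. A further row of the table also carries the symbol Ddit3 (ENSMUSG00000116429, 105 bases). In the GENCODE M21 annotation of GRCm38, all 105 of its exon bases lie inside exons of the main Ddit3 model (ENSMUSG00000025408), and it held 0 counts in all 6 libraries. A count of 0 allows up to 0.0357 to 0.0772 CPM (read counts scaled to library size) in a single library, for counting error alone. Reads of the shared bases cannot be told apart between the models, so these values set no limit on RNA of the shorter model. Only the main model is described below.

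RNA was sequenced from MB21, a mouse medulloblastoma cell line whose labelled genotype is ptch mutant, kept as non-adherent cells in DMEM/F12 with B27. The 3 libraries of the DS38 group came from cells given 10 uM of DS-1-38, a benzarone derivative, for 1 day, and the 3 libraries of the DMSO group came from cells given the vehicle for the same time. The ptch genotype and the culture medium were common to both groups, all libraries came from this single line, and the design text of the series names 5 days where the titles and the treatment protocol name 1. No label says that replicates were separate cultures, so p-values below measure the spread between these libraries, which may be technical.

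The integrated stress response begins when any of the kinases HRI, PKR, PERK or GCN2 phosphorylates the translation factor eIF2alpha. Most protein synthesis then slows, while messages with upstream open reading frames, among them those of Atf4, Atf5, Ddit3 and Ppp1r15a, are translated better. ATF4 pairs with C/EBP proteins to induce genes of amino acid supply and further regulators, and GADD34, the product of Ppp1r15a, recruits a phosphatase that removes the phosphate from eIF2alpha. The libraries measured messenger RNA, so neither phosphorylation nor translation was read.

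Part of the DNA element that ATF4 and its C/EBP partners bind can be written TGATGNAA. This motif was searched on both strands in RefSeq promoters of GRCm38.p6, from 250 bases before to 50 after each start, where N is any base. All 10 members matched an entry, with 11 promoters between them. At least 1 match was present in 3 of the 10 members, Atf3, Trib3 and Chac1, against 4.51% of 27025 genes with such an entry. The palindromic cyclic AMP response element TGACGTCA was present in 1 member, Ppp1r15a, against 2.03% of genes. It overlaps none of the TGATGNAA matches. The ER stress element, CCAAT and CCACG with 9 bases of any kind between them, was found in none of the 10 and in 0.137% of genes. The matched stretches are shown because they are the places where these letters occur near a member's start. Each is written 5′ to 3′ along the gene's strand with the match in capitals. Those of TGATGNAA run on the opposite strand and so appear as the reverse complement.
Atf3, chr1:191183416-191183463, minus strand, upstream of the start: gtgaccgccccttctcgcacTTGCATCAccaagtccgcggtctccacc
Chac1, chr2:119351029-119351076, plus strand, upstream of the start: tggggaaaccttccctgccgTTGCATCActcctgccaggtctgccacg
Trib3, chr2:152344029-152344056, minus strand, just after the start: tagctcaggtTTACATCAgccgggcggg
Ppp1r15a, chr7:45526269-45526300, minus strand, ending at the last base before the start: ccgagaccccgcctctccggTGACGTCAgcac
The Atf3 and Chac1 matches read the same 8 bases, TTGCATCA, and the Trib3 match differs from them within the motif. These matches describe the letters present and say nothing of binding in these cells.

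After 1 day of DS38, messages of 9 of the 10 regulators were higher and none was lower. The exception was Cebpg. Over all 17679 genes tested, 12.9% were called higher (edgeR quasi-likelihood test, Benjamini-Hochberg adjusted p below 0.05). The same 9 members had every DS38 library above every DMSO library, which held for 20.7% of all genes tested. The members' median log2 fold change was 0.50, beside 0.0036 over all genes tested. The rises of the 9 ranged widely, from 10.8% for Ppp1r15a and 12.1% for Atf4 to 89.7% for Atf5 and 92.8% for Trib3. In bulk RNA, more cells with a message and more message per cell cannot be told apart.

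**Figure D1:**
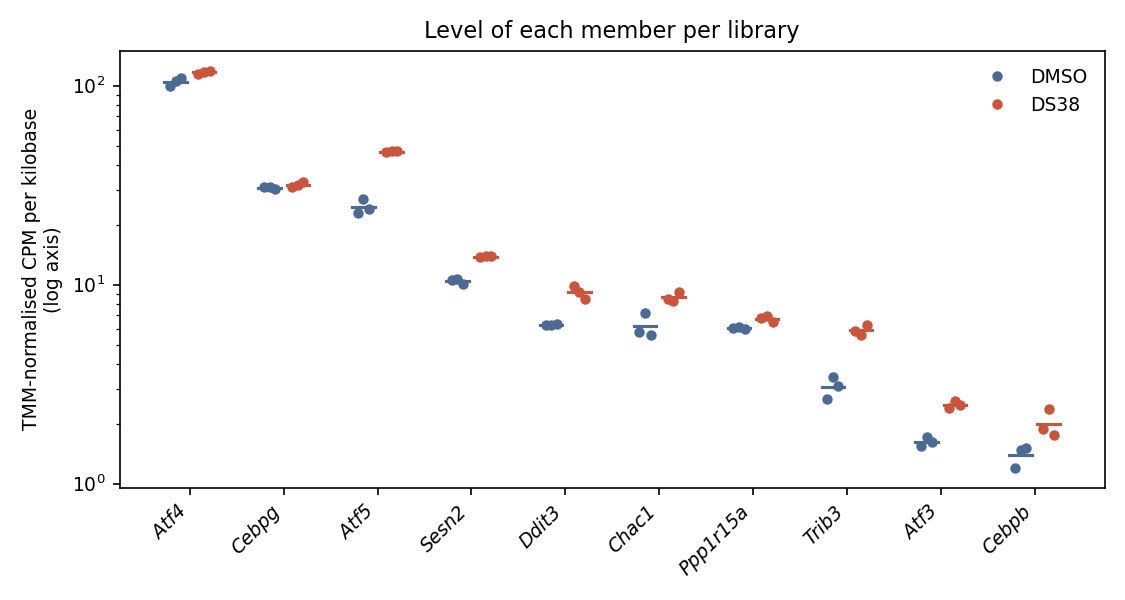
Level of each member in each library as TMM-normalised CPM per kilobase on a log axis; points are libraries (3 per group), short lines are group means, and genes are ordered by their DMSO mean. Atf4 sits at the top in both groups, and Atf5 moves above Cebpg in DS38.

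Levels between genes are compared per kilobase of the deposited gene length. In DMSO the order ran from Atf4 at 105 ± 4.84 CPM per kilobase (SD, n = 3) through Cebpg at 30.7 ± 0.469 and Atf5 at 24.5 ± 2.10 to Sesn2 at 10.4 ± 0.304. Ddit3, Chac1 and Ppp1r15a followed at 6.28 ± 0.0593, 6.19 ± 0.859 and 6.06 ± 0.0932, and the libraries of Chac1 overlapped those of both others. Trib3, Atf3 and Cebpb were lowest, at 3.07 ± 0.389, 1.62 ± 0.0904 and 1.39 ± 0.170. Apart from these 3, no neighbours in this order overlapped in DMSO. In DS38 Atf5, at 46.6 ± 0.332, stood above Cebpg at 31.8 ± 0.858, and the order of the others was the same. There Ddit3 and Chac1 were the sole neighbours that overlapped.

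Atf4 encodes the central transcription factor of the response. Its message was already abundant in vehicle, at 234, 250 and 256 CPM in DMSO replicates 1 to 3, and at 272, 277 and 280 CPM in DS38. The groups did not overlap, yet the gap between the highest DMSO and the lowest DS38 library was small. Its log2 fold change was 0.16 ± 0.032 (SE; edgeR adjusted p = 0.000589), a rise of 12.1% with a 95% interval of 7.07% to 17.4%. By size of log2 fold change it stood at place 3556 from the top of the 17679 genes tested.

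Atf5 encodes a related factor that is likewise under translational control. It was at 45.5, 53.6 and 47.7 CPM in DMSO and at 92.1, 93.4 and 93.0 CPM in DS38. The DS38 libraries lay within a narrow band far above every DMSO library. Its log2 fold change was 0.92 ± 0.043 (edgeR adjusted p = 5.267e-12), which is 1.90-fold with an interval of 1.78 to 2.02, at place 148 from the top. In the annotation named above, 82 of its 1993 exon bases are shared with Nup62 on the opposite strand, whose log2 fold change was -0.02 ± 0.034 (edgeR adjusted p = 0.758). The strand setting of the counting is not given in the sources used here, so reads of such shared bases cannot be assigned with certainty.

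Ddit3 encodes CHOP, a factor that ATF4 induces and that is tied to cell death in lasting stress. Its libraries read 10.7, 10.7 and 10.9 CPM in DMSO and 16.9, 15.7 and 14.5 CPM in DS38. DMSO libraries were nearly equal, with a coefficient of variation of 0.944%, against 7.60% in DS38, where replicate 1 was highest. At 421 to 523 counts per DMSO library, counting error alone exceeds the DMSO spread. A difference in spread between groups was not tested. The log2 fold change was 0.55 ± 0.066 (edgeR adjusted p = 2.857e-06). Of its 1713 exon bases, 68 are shared with Mars1 on the opposite strand, which rose by 0.11 ± 0.031 (edgeR adjusted p = 0.00903).

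Atf3 encodes a stress-induced factor of the same family that lies downstream of ATF4. It was among the scarcest members, at 3.31, 3.70 and 3.46 CPM in DMSO and 5.16, 5.57 and 5.36 CPM in DS38. Replicates were close within each group and the groups were well apart. Its log2 fold change was 0.62 ± 0.099 (edgeR adjusted p = 8.970e-05), or 1.53-fold with an interval of 1.33 to 1.77.

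Cebpb and Cebpg encode C/EBP proteins that can dimerise with ATF4, and they behaved unlike each other. Cebpb was the scarcest member, with 952 counts in all, at 1.80, 2.20 and 2.27 CPM in DMSO and 2.83, 3.55 and 2.65 CPM in DS38. DS38 replicate 2 was the highest, and the groups were separate by a small margin. The log2 fold change was 0.52 ± 0.14 (edgeR adjusted p = 0.0106), with an interval of 0.22 to 0.82. This call was lost without DMSO replicate 1 (edgeR adjusted p = 0.0650), without DS38 replicate 2 (edgeR adjusted p = 0.0769) and with libraries thinned to equal depth (edgeR adjusted p = 0.0874). Of its 1504 exon bases, 312 are shared with Tmem189 on the opposite strand, which held 8620 counts and had a log2 fold change of 0.06 ± 0.055 (edgeR adjusted p = 0.50).

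Cebpg, in contrast, was abundant, at 173, 175 and 170 CPM in DMSO and at 175, 178 and 184 CPM in DS38. The groups overlapped. Its log2 fold change of 0.05 ± 0.029 did not pass (edgeR adjusted p = 0.243). Its interval, from -0.01 to 0.11, ended at a rise of 7.95% under TMM scaling. With library size alone as the scaling, it passed at 0.08 ± 0.029 (edgeR adjusted p = 0.0343).

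**Figure D2:**
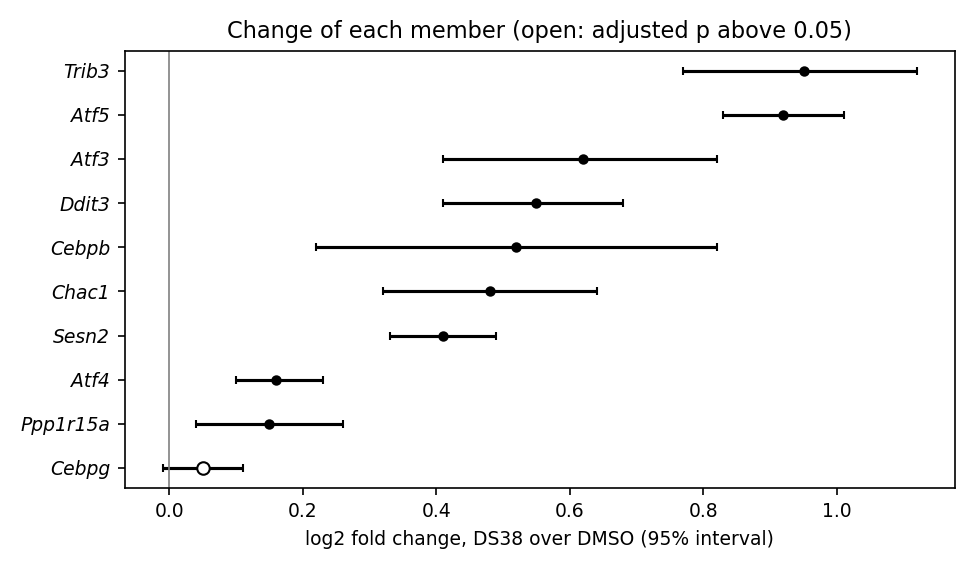
Change of each member, DS38 over DMSO, as log2 fold change with its 95% interval from edgeR; the open point did not pass an adjusted p of 0.05. Trib3 and Atf5 are at 0.95 and 0.92, a middle set from Sesn2 to Atf3 lies between 0.41 and 0.62, and Atf4, Ppp1r15a and Cebpg lie at 0.16 or below.

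Trib3 encodes a pseudokinase that ATF4 and CHOP induce and that dampens their activity. It read 5.67, 7.32 and 6.59 CPM in DMSO and 12.5, 11.8 and 13.3 CPM in DS38. Every DS38 library was far above the highest DMSO library. Its log2 fold change of 0.95 ± 0.083 (edgeR adjusted p = 4.452e-08) was the highest point estimate among the members, 1.93-fold with an interval of 1.71 to 2.17, which overlaps that of Atf5. It stood at place 132 from the top of all genes tested.

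Ppp1r15a, the stress-induced phosphatase subunit, moved little, at 17.8, 18.1 and 17.5 CPM in DMSO and 19.9, 20.3 and 19.0 CPM in DS38. The groups did not overlap. Its log2 fold change was 0.15 ± 0.052 (edgeR adjusted p = 0.0391). Of its 2937 exon bases, 12 are shared with Tulp2 on the opposite strand, which held 221 counts and rose by 0.88 ± 0.31 (edgeR adjusted p = 0.0406). The call was lost with DESeq2 (adjusted p = 0.0820), with limma-voom (adjusted p = 0.0511) and on leaving out any library but DS38 replicate 3 (edgeR adjusted p = 0.0695 to 0.137).

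Chac1 encodes an enzyme that degrades glutathione and is a late target of the ATF4 and CHOP axis. It was at 9.51, 11.7 and 9.15 CPM in DMSO and 13.8, 13.6 and 15 CPM in DS38. DMSO replicate 2 came closest to the DS38 libraries but did not reach them. The log2 fold change was 0.48 ± 0.078 (edgeR adjusted p = 0.000101).

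Sesn2 encodes sestrin 2, a leucine sensor that restrains mTORC1 and is induced by ATF4 and by p53. It read 36.5, 37.1 and 35.1 CPM in DMSO and 47.7, 48.4 and 48.4 CPM in DS38. Both groups were tight, with coefficients of variation of 2.92% and 0.923%. The log2 fold change was 0.41 ± 0.038 (edgeR adjusted p = 9.382e-08), a rise of 32.8% with an interval of 25.7% to 40.3%.

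Among vehicle libraries, 7 of the 10 members were highest in DMSO replicate 2 and 0 in DMSO replicate 1, whereas 30.0% and 33.5% of all genes tested had their DMSO maximum in these libraries. Atf5, Trib3 and Chac1 were among the 7, and their coefficients of variation in DMSO were 8.56%, 12.7% and 13.9%, against 0.714%, 5.88% and 5.26% in DS38. Without DMSO replicate 2 the log2 fold change of Trib3 was 1.04, and without DMSO replicate 1 it was 0.85. DMSO replicate 3 was the vehicle library most like the DS38 group over all genes (Pearson's r of log2 CPM of 0.9969 to 0.9971 with DS38 libraries, against 0.9964 to 0.9968 for the other vehicle libraries). Without it 8 members were called higher, Ppp1r15a being the one lost.

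Ratios between genes within a library do not depend on how libraries are scaled to each other. Length-scaled counts of Atf5 relative to Atf4 were 0.230, 0.254 and 0.220 in DMSO and 0.400, 0.400 and 0.393 in DS38, so Atf5 gained on Atf4 by 1.70-fold. Trib3 relative to Atf4 went from 0.0293 ± 0.00289 to 0.0504 ± 0.00264 (SD, n = 3), a gain of 1.72-fold. Ddit3, Atf3 and Chac1 gained on Atf4 by 1.30-fold, 1.37-fold and 1.25-fold. Cebpb gained on Cebpg by 1.39-fold. In each of these ratios the groups did not overlap.

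Several members have a close relative that serves as an internal comparison. Trib3 relative to Trib2 went from 0.346 ± 0.0466 to 0.815 ± 0.0570, and relative to Trib1 from 0.673 ± 0.0937 to 1.37 ± 0.105, so that Trib3 passed Trib1 per kilobase. Sesn2 gained on Sesn1 by 1.33-fold and on Sesn3 by 1.42-fold, and Chac1 on Chac2 by 1.55-fold. Ppp1r15a, at 0.0895 ± 0.00168 of the constitutive subunit gene Ppp1r15b in DMSO and 0.0985 ± 0.00363 in DS38, gained by 1.10-fold. All 13 ratios computed had no overlap between groups, and each had a two-sided exact permutation p of 0.1, also after adjustment over the 13. That is the smallest p that 3 libraries against 3 can give, so no ratio can pass 0.05. The ratios were chosen after the members' values were seen. Each has as its numerator a member that by itself had no overlap, so their separation is no separate support.

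**Figure D3:**
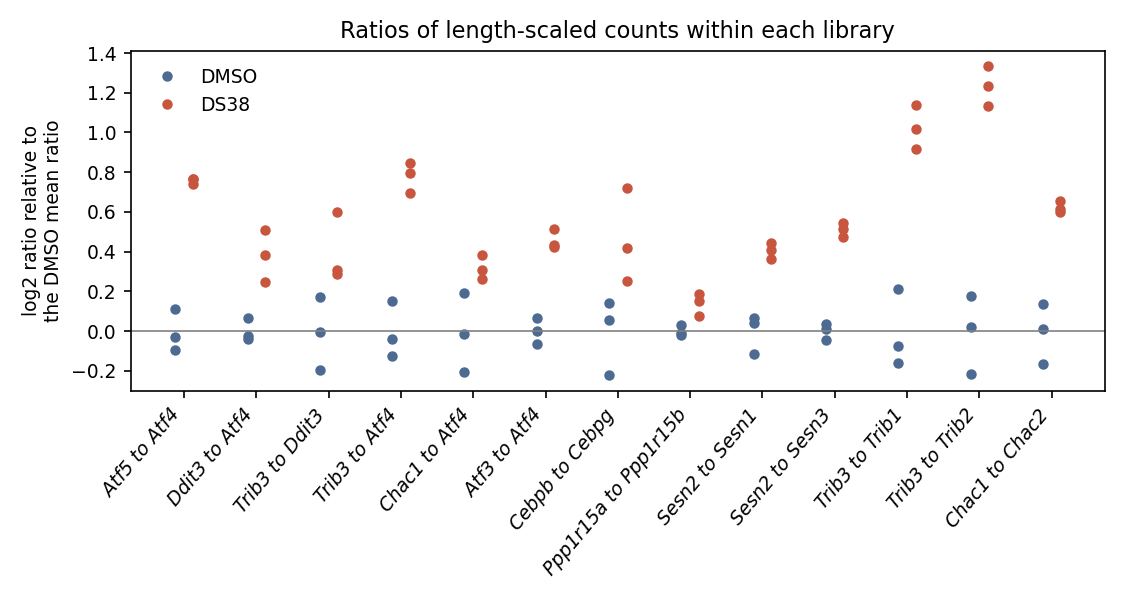
Ratios of length-scaled counts within each library, as log2 relative to the mean ratio in DMSO; each point is a library, 3 per group. DS38 points lie above all DMSO points in each of the 13 ratios, with the smallest gap for Ppp1r15a to Ppp1r15b.

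In the fit across all genes, none of the relatives rose. Of 6 tested, 2 fell: Trib2 by 0.29 ± 0.039 on the log2 scale (edgeR adjusted p = 1.120e-05) and Sesn3, whose groups overlapped, by 0.10 ± 0.033 (edgeR adjusted p = 0.0263). Over all genes tested, 11.7% were called lower. The count was 1 with library size alone and on leaving out any library other than DMSO replicate 3.

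Of 8 tested genes for the eIF2alpha kinases and their activators, which act upstream of ATF4, 0 were called in either direction, with a median log2 fold change of -0.01. Over all genes tested, 24.5% were called in one direction or the other. Eif2ak1, for HRI, averaged 177 ± 3.60 CPM under vehicle and 177 ± 2.65 under DS38 (SD, n = 3), and Gcn1, the activator of GCN2, had an interval of -0.08 to 0.05. Oma1, the mitochondrial protease that relays stress to HRI, averaged 4.39 ± 0.306 CPM under vehicle and 5.19 ± 0.0533 under DS38, with no overlap between groups. The difference of 0.25 ± 0.095 on the log2 scale, with an interval of 0.05 to 0.45, did not pass (edgeR adjusted p = 0.0597). It passed without DMSO replicate 3 or with library size alone, thinning or the stricter filter of 5 CPM in 3 libraries. Only the DS38 libraries reached that level for Oma1, so its pass under this filter is no separate support. At an unadjusted p below 0.05, 1 of the 8 passed, and DESeq2 and limma-voom called 0. Of 10 genes for eIF2, its exchange factor eIF2B and the eIF2alpha phosphatase, 1 was called lower, or 10%, beside 11.7% of all genes tested. It was Eif2s1, which encodes eIF2alpha, lower by 0.10 ± 0.028 (edgeR adjusted p = 0.0139). That call was lost on leaving out any DS38 library or with library size alone. In that list 0 rose, but 2 did so with library size alone and without DMSO replicate 3, and 1 with limma-voom.

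Downstream, most of the genes listed here as known ATF4 or CHOP targets were higher. The list was chosen with earlier results of these data known. Of 49 tested, 35 rose and 1 fell, with a median log2 fold change of 0.16. Among all genes tested, 12.9% were called higher and 11.7% lower. The number of targets that fell was 2 without DMSO replicate 3. Of 23 genes for amino acid synthesis and uptake, 18 rose. Examples are Pycr1, for proline synthesis, at 35.0 ± 1.75 CPM under vehicle and 56.9 ± 1.58 under DS38, and Cth, for cysteine synthesis, at 18.9 ± 1.38 and 30.1 ± 0.811. Aldh1l2, a mitochondrial folate enzyme, was at 89.1 ± 3.83 and 118 ± 3.17. Slc38a2, an amino acid transporter, was the gene that fell, by 0.19 ± 0.029 (edgeR adjusted p = 6.628e-05).

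Of 12 tRNA synthetase genes 9 rose and 0 fell, or 1 without DMSO replicate 3. Among all genes tested, 12.9% were called higher and 11.7% lower. The changes of the 12 were small. Their log2 fold changes ran from -0.06 to 0.19, with Sars1, Gars1 and Yars1 at 0.19 ± 0.029, 0.17 ± 0.028 and 0.14 ± 0.029. Of 14 tested targets in signalling and stress, 8 rose and 0 fell, and 57.1% rising stands beside the same 12.9%. Nupr1, a stress-induced chromatin-associated protein, averaged 5.86 ± 0.991 CPM under vehicle and 8.72 ± 0.142 under DS38, and Sqstm1 and Vegfa rose by 0.30 ± 0.031 and 0.23 ± 0.038. Fgf21, Gdf15 and Adm2, which encode secreted signals of the response, held 50, 30 and 17 counts over all libraries and were not tested.

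The other branches of the unfolded protein response gave a different count. Of 18 genes of the ATF6 and IRE1-XBP1 branches, 2 rose and 1 fell, which is 11.1% and 5.56%, beside 12.9% and 11.7% of all genes tested. Those that rose were Xbp1, by 0.28 ± 0.049, and Herpud1, by 0.20 ± 0.037. ATF4 can also induce Herpud1, and its part in this rise was not tested. Dnajc3, a co-chaperone that inhibits PERK and PKR, fell by 0.16 ± 0.030 (edgeR adjusted p = 0.000319). Hspa5, the main ER chaperone, averaged 445 ± 11.5 CPM under vehicle, 467 ± 9.43 under DS38, and did not pass (edgeR adjusted p = 0.0823). With limma-voom, with library size alone and without DMSO replicate 3, the higher genes numbered 4.

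Among other CREB/ATF and C/EBP factors, 4 of 15 tested rose and 2 fell, which is 26.7% and 13.3%, beside 12.9% and 11.7% of all genes tested. Atf6, the ER stress sensor, rose by 0.19 ± 0.031, Nfil3 by 0.32 ± 0.083 and Jdp2, a repressor of AP-1, by 0.18 ± 0.051. Creb1 and Atf7 fell by 0.11 ± 0.031 and 0.12 ± 0.037. These counts rested on single libraries: leaving out DMSO replicate 1 gave 1 higher and 1 lower, and leaving out DS38 replicate 2 gave 2 higher and 0 lower. A single gene was also lower on leaving out DMSO replicate 2, on leaving out DS38 replicate 3, and under scaling by library size. Cebpa, at 8.49 ± 0.414 CPM in DMSO, and Cebpd, at 0.579 ± 0.172, did not pass.

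**Figure D4:**
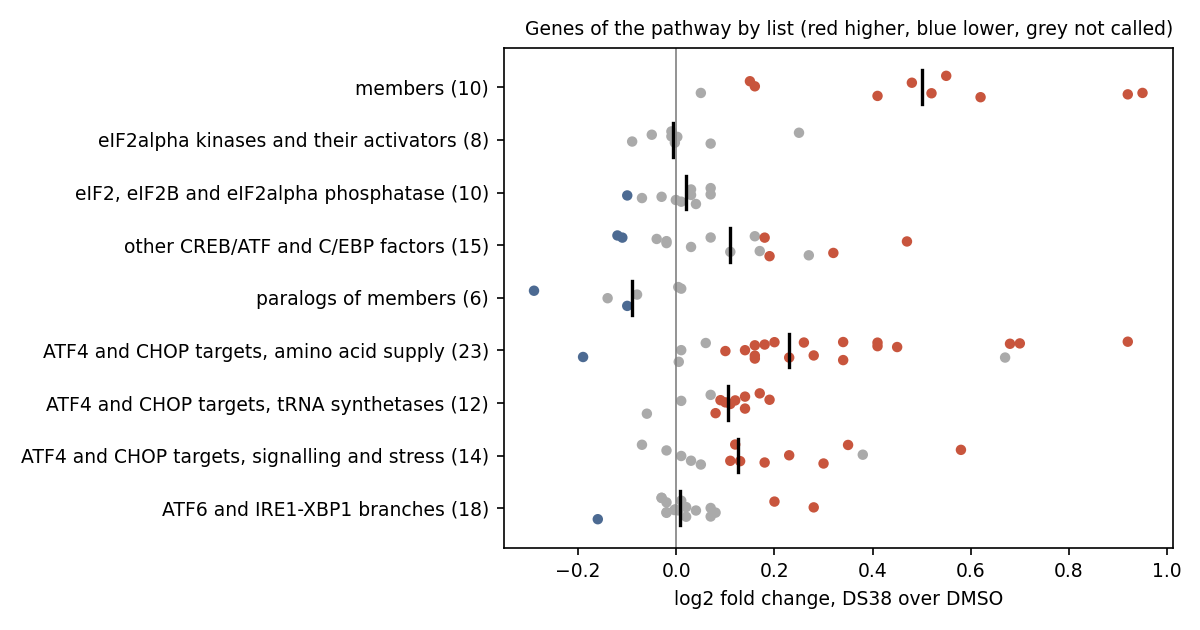
log2 fold change of every tested gene of the members and the 8 pathway lists, with the number tested in brackets and the list median as a black line. Members and ATF4 or CHOP targets lie mostly above 0, and the eIF2alpha kinase, eIF2 and ATF6 and IRE1-XBP1 lists are centred near 0.

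The genes whose profiles across the 6 libraries were most like that of the members were ranked among 9976 genes of at least 5 CPM. The measure was Pearson's r of log2 CPM with the mean of the members' standardised values. Taf1a was closest (r = 0.9992), followed by Ivns1abp, Slc30a9, Luc7l and Arhgef2 (r = 0.9977 to 0.9959), all called higher by 0.14 to 0.31 on the log2 scale. The most opposite profiles were those of Dhx15, Mmp24, Zmynd11, Idh1 and Msmo1 (r = -0.9987 to -0.9976). The points are 6 libraries of 2 groups, so any gene that separates the groups with little spread scores high by this measure.

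The vehicle libraries held 38840296 to 50014681 counts each, the DS38 libraries 60434089 to 84044428, every one of them deeper, and member genes held from 952 to 95961 counts in all. Of 11 markers of granule neuron progenitors and hedgehog medulloblastoma all were tested, with summed levels of 2961 to 3048 CPM in DMSO and 2878 to 2898 in DS38; 2 rose and 7 fell, or 18.2% and 63.6%, beside 12.9% and 11.7% of all genes tested. Atoh1, at 327 ± 8.37 CPM under vehicle, and Barhl1 rose by 0.33 and 0.27 on the log2 scale. Neurod1 fell by 0.37, Ptch1, Gli2, Gli1, Zic2 and Ccnd1 fell by 0.13 to 0.19, and Zic1 fell by 0.10, nearest to the threshold of the 7 (edgeR adjusted p = 0.0222). The 20 markers of astrocytes, oligodendrocytes, leukocytes, fibroblasts and endothelium summed to 9.02 to 9.90 CPM in DMSO and 10.5 to 11.5 in DS38. Of these, 8 were tested, 2 rose (Gfap and Col1a1) and Mag and Kdr were at 0 in all libraries. The part of these differences, and of depth, in the members' results was not tested, apart from the thinning to equal depth. That thinning was a single random draw, in which 8 members were higher and Cebpb was the call lost. How the calls vary between draws was not tested.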

How the data were processed

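The authors deposited a table of unnormalised read counts per gene, with gene lengths. The submitters' processing notes list the tools featureCounts, STAR (2.7.9a), edgeR, Subread (2.0.3) and R (4.1.0) and the builds GRCm39 and GRCh38.p13; the role of each is not given in the sources used here. Symbols came from the reference tables for 52083 of 55416 identifiers, and the rest held 0.345% of counts. Gene overlaps and promoters came from GRCm38, an older build, and are not counting coordinates.

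Genes were kept by filterByExpr (minimum count 10, minimum total 15), scaled by TMM and tested with edgeR 4.0.16 (R 4.3.3) by the two-sided quasi-likelihood test with a group term, and p-values were adjusted by Benjamini-Hochberg over 17679 genes (threshold 0.05). Levels are TMM-normalised CPM, with gene length for comparisons between genes. Alternatives were DESeq2 1.42.0, limma-voom (limma 3.58.1), RLE factors, library size alone, no filter, a stricter filter (5 CPM in 3 libraries), a replicate block, robust dispersion, thinning to 38840296 counts and leaving out each library. Every pair of libraries in a group differed by more than sampling noise. Chi-square per degree of freedom was 8.57 to 9.61 between DMSO libraries and 2.91 to 3.56 between DS38 libraries. Between the groups it was 10.7 to 12.9 for DMSO replicate 3 and 24.2 to 28.9 for the other vehicle libraries.

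The members and lists were chosen with earlier results of these data known. Beside the members, named genes were up to 3 called genes of smallest adjusted p per list and direction, or the most abundant member where none was called, and the 5 most and least similar profiles; Eif2ak1, Oma1, Hspa5, Cebpa, Cebpd, Fgf21, Gdf15 and Adm2 and the gene ratios were chosen after values were seen.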

Additional observations from a re-analysis of the deposited data

How the results depend on the processing

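Over 15 alternatives, 7 to 10 of the members were called higher and 0 lower; with one library left out the count was 7 to 9. Atf4, Atf5, Ddit3, Atf3, Trib3, Chac1 and Sesn2 passed in the same direction under every alternative, with log2 fold changes of 0.13 to 0.20, 0.87 to 1.00, 0.49 to 0.60, 0.58 to 0.67, 0.85 to 1.04, 0.41 to 0.60 and 0.38 to 0.44. Calls of Cebpb and Ppp1r15a were lost and that of Cebpg was gained under the settings given above, and the cause was not tested. Cebpb was not tested under the stricter filter. Atf3 reached the level of that filter only in the DS38 libraries, where it was higher, so its pass there is no separate support. Library size alone shifted the median of all genes by 0.035 and the share of calls that were higher from 52.4% to 68.1% (3294 higher and 1543 lower); under it all 10 members were higher. ATF4 and CHOP targets called higher numbered 29 to 38, and those called lower 1 to 2. Replicate numbers did not pair the libraries (correlation of deviations of same-numbered libraries from -0.062 to 0.0488). With the replicate block, 9 members were higher and 0 lower, 34 targets were higher and 1 lower, and 2108 genes in all were higher and 1902 lower. Leaving out single libraries gave 1640 to 2437 genes higher and 1549 to 2474 lower. Counts behind a member ran from 952 for Cebpb, which had the widest interval, to 95961 for Atf4.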
